A study of Arabidopsis thaliana with 30 samples.

Results

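Whole leaves of Arabidopsis thaliana jazD plants were compared by RNA sequencing at 12 h and at 3 h after a spray with coronatine, and the quantity described is how far the coronatine effect moved between these times. The comparison used 12 of the 30 libraries of the series, all those taken at 12 h or 3 h, as 4 groups of 3 replicates: coronatine leaves at 12 h, mock leaves at 12 h, coronatine leaves at 3 h and mock leaves at 3 h. Plants were 26 days old and in the Col-0 ecotype. The spray held 5 µM coronatine in water, and the mock spray was water alone. Every plant carried jazD and no wild type was included, so the values describe this genotype only. From general knowledge, and not from the labels, jazD has disruptions in 10 of the 13 JAZ genes and leaves JAZ8, JAZ11 and JAZ12 intact. No label says that replicates came from separate plants, so p-values measure the spread between libraries. Plants grew under 16 h of light and 8 h of darkness. No clock time of the spray or harvests is given in the sources used here, so differences between 12 h and 3 h within a treatment, where time after spraying and time of day cannot be told apart, are given beside the change of effect.

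Coronatine is a bacterial mimic of jasmonoyl-isoleucine. It joins the receptor COI1 to JAZ repressors, which are then degraded, and frees MYC transcription factors to switch on wound and defence genes such as those of glucosinolate, terpene and jasmonate synthesis. Jasmonate also promotes leaf senescence, in which chlorophyll is taken apart by a chain of plastid enzymes, photosynthesis genes are shut down, and autophagy and proteases release nitrogen for export. The comparison asks which of these programmes had a different coronatine effect at 12 h than at 3 h.

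Values were TPM, a transcript's share of all transcripts in a library, which is scaled for transcript length and keeps no depth. The coronatine effect at a time was the mean log2(TPM + 1) of coronatine leaves minus that of mock leaves, and the change of effect was the effect at 12 h minus the effect at 3 h. A positive change means a higher effect at 12 h. Both quantities were tested with limma over all 30 libraries with Benjamini-Hochberg adjustment over 19005 genes, and a gene was called only where the adjusted p was under 0.05, with 1 sign, both for the deposited TPM and for TPM after TMM rescaling. The second scaling mattered because the median effect of all tested genes was -0.54 at 12 h and -0.47 at 3 h on TPM as deposited, against 0.03 and -0.01 after TMM rescaling. The median change of effect was closer to 0 on both, at -0.05 on TPM and 0.07 after TMM rescaling. Replicates within a group had Spearman correlations of 0.989 to 0.995 across genes. RBCS1A, a small subunit of Rubisco and a leaf marker, ranged from 4816 to 19418 TPM over the 12 libraries, and LHCB1.1, a light-harvesting protein, from 51.5 to 10011 TPM. None of 5 flower marker genes passed the filter on low values.

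The coronatine effect changed in most genes. It was higher at 12 h in 5701 genes (30.0%) and lower in 5851 (30.8%), so that 60.8% of tested genes were called in either direction. On TPM as deposited alone, 5706 were higher (30.0%) and 6804 lower (35.8%). With TMM rescaling alone, 6928 were higher (36.5%) and 5862 lower (30.8%). The step from 3 to 12 h held more calls than the steps on either side: 36.3% for 3 h against 1 h, with 11.2% higher and 25.1% lower, and 40.4% for 24 h against 12 h, with 25.3% higher and 15.1% lower. These neighbouring steps share libraries with the one described here, and only their own counts are given.

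Few changes were a turn of direction against mock. Among the 5701 genes with a higher effect at 12 h, 1965 (34.5%) were above mock at 12 h and not called at 3 h, and 1117 were below mock at 3 h and not called at 12 h. Another 1012 were above mock at both times, by more at 12 h. Among the 5851 with a lower effect, 2487 (42.5%) were below mock at 12 h and not called at 3 h, and 2172 (37.1%) were below mock at both times. The turns were these: 299 genes (5.24%) were above mock at 12 h and below it at 3 h, and 117 (2.00%) were below mock at 12 h and above it at 3 h. Coronatine leaves were called above mock in 24.3% and below mock in 41.7% of tested genes at 12 h (66.0% in all), and above in 14.2% and below in 36.1% at 3 h (50.2% in all). The excess of lower calls came with the deposited scaling and was larger on it alone. On TPM as deposited, 4609 genes were above and 11700 below mock at 12 h, and 2693 above and 12843 below at 3 h. After TMM rescaling alone, 8238 genes were above and 7926 below mock at 12 h, and 6679 above and 6852 below at 3 h.

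The moving arm was more often the treated one. In 3409 of the genes with a higher effect (59.8%), coronatine leaves at 12 h exceeded coronatine leaves at 3 h while mock leaves were not called. In 2577 of those with a lower effect (44.0%), coronatine leaves at 12 h lay below coronatine leaves at 3 h while mock leaves were not called. Mock leaves alone accounted for 498 (8.74%) and 814 (13.9%). In a further 1452 genes with a lower effect (24.8%), coronatine leaves fell and mock leaves rose between the harvests. Over all tested genes, coronatine leaves at 12 h were above those at 3 h in 37.9% and below in 30.7% (68.6% in all). Mock leaves at 12 h were above those at 3 h in 24.0% and below in 13.9% (37.8% in all). After TMM rescaling alone the split in mock leaves turned round, with 4553 genes above and 4947 below.

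**Figure D1:**
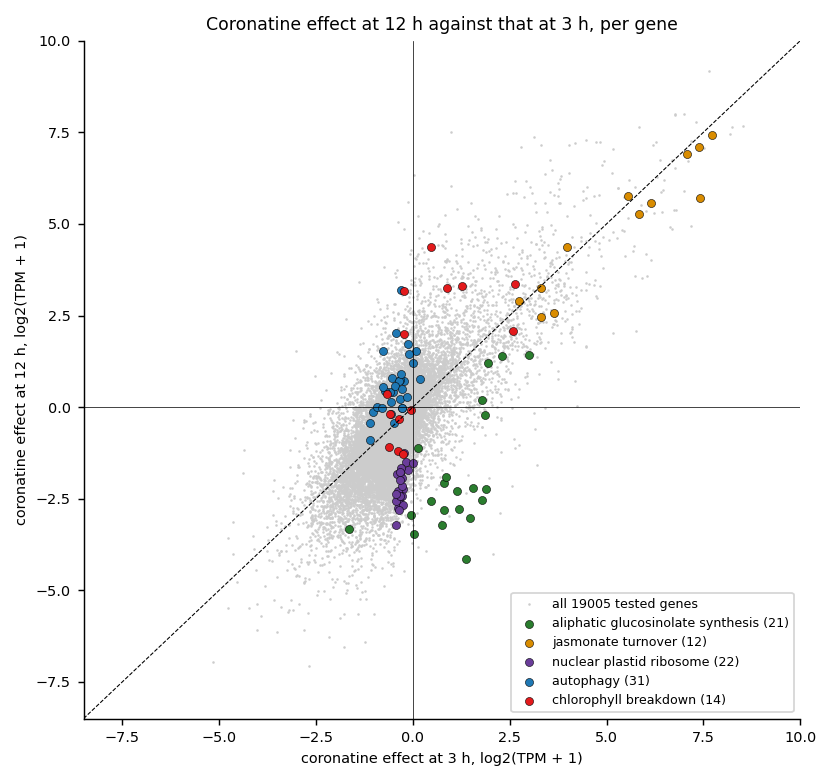
Each grey point is 1 of the 19005 tested genes, with the coronatine effect at 3 h on the x axis and at 12 h on the y axis, both in log2(TPM + 1) units. Coloured points are members of 5 gene lists and the dashed line marks equal effects: jasmonate turnover genes lie near the line at high effects, while aliphatic glucosinolate and plastid ribosome genes lie below it.

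The 12 largest gains were ranked among called genes with a symbol, which 8419 of the 19005 tested genes had. A ranked gene also had a mean of at least 10 TPM in the highest group. Its coronatine and mock libraries did not overlap at the time with the larger effect, so that separation was a condition of the ranking. These 12 genes included cell wall enzymes and auxin-conjugating enzymes. PGAZAT (AT2G41850, chromosome 2, 17461655 to 17464161, minus strand in TAIR10), a pectin-cutting polygalacturonase of abscission zones, had the largest change among them. It stood at 210.0, 319 and 229.9 TPM in coronatine leaves and 0.14, 0.11 and 1.03 TPM in mock leaves at 12 h, and at 1.33, 0.55 and 1.51 TPM in coronatine leaves and 0, 0 and 0.16 TPM in mock leaves at 3 h. All 3 coronatine libraries at 12 h were far above the other 9, and the change of effect was 6.52 ± 0.28 (SE, limma adjusted p = 1e-15). GH9B15 (AT4G23560, chromosome 4, 12293332 to 12295859, minus strand), an endoglucanase, stood at 84.6, 114 and 103 TPM in coronatine leaves and 0.03, 0.03 and 0.81 TPM in mock leaves at 12 h, and at 0.06, 0 and 0.09 TPM in coronatine leaves and 0.03, 0 and 0.08 TPM in mock leaves at 3 h. Among these 12 libraries it was under 1 TPM in all but the coronatine leaves at 12 h. Its effect was larger again at 24 h, at 9.66, and the change from 3 to 12 h was 6.32 ± 0.20 (SE, limma adjusted p = 3.2e-18). XTH11, a xyloglucan-modifying enzyme, was above mock at both times, with an effect of 7.11 at 12 h and 2.80 at 3 h. BGAL4, a β-galactosidase, changed by 4.53 ± 0.19 (SE, limma adjusted p = 7.9e-16).

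The GH3 enzymes GH3.3, BRU6 and GH3.1 join auxin to amino acids. GH3.3 stood at 381, 329 and 301 TPM in coronatine leaves and 6.02, 6.28 and 5.67 TPM in mock leaves at 12 h, and at 9.08, 10.2 and 8.76 TPM in coronatine leaves and 11.8, 10.6 and 8.61 TPM in mock leaves at 3 h. GH3.3 overlapped between coronatine and mock leaves at 3 h, and its separation at 12 h was required by the ranking. Its change of effect was 5.71 ± 0.18 (SE, limma adjusted p = 6.2e-18), followed by 5.11 ± 0.23 (SE, limma adjusted p = 2.1e-15) for BRU6 and 4.27 ± 0.14 (SE, limma adjusted p = 1.1e-17) for GH3.1. HAT2, an auxin-inducible homeodomain factor, turned direction. It stood at 22.2, 21.2 and 20.2 TPM in coronatine leaves and 6.6, 6.74 and 6.52 TPM in mock leaves at 12 h, and at 1.56, 2.06 and 1.39 TPM in coronatine leaves and 22.1, 18.7 and 20.4 TPM in mock leaves at 3 h, which is above mock at 12 h and far below mock at 3 h, a change of 4.55 ± 0.11 (SE, limma adjusted p = 2.1e-19). The flavonoid glucosyltransferase genes UGT73B2 and UGT73B3 turned in the same way, with changes of 4.81 and 4.57. These 2 genes are near-identical neighbours, so how reads were divided between them is uncertain. SAG113, a senescence-associated protein phosphatase, and CV, which carries proteins out of chloroplasts for breakdown, complete the 12 largest gains, at 4.41 ± 0.18 (SE, limma adjusted p = 4.1e-16) and 4.29 ± 0.23 (SE, limma adjusted p = 3.6e-14).

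The 12 largest losses, ranked under the same conditions, included members of aliphatic glucosinolate synthesis and chloroplast metabolism. IPMI1 (AT3G58990, chromosome 3, 21797058 to 21798303, minus strand), a subunit of the isomerase that lengthens the methionine side chain, had the largest loss among them. It stood at 9.48, 4.01 and 3.81 TPM in coronatine leaves and 127, 105 and 103 TPM in mock leaves at 12 h, and at 88.1, 97.3 and 94.8 TPM in coronatine leaves and 28.6, 43.1 and 35.9 TPM in mock leaves at 3 h. Coronatine leaves were therefore far below mock at 12 h and above every mock library at 3 h, and the effect changed by -5.53 ± 0.41 (SE, limma adjusted p = 1.3e-11). LTL1 (AT3G04290, chromosome 3, 1133320 to 1136316, minus strand), a GDSL lipase, stood at 1.14, 0.93 and 0.5 TPM in coronatine leaves and 172, 140.5 and 153 TPM in mock leaves at 12 h, and at 64.3, 63.03 and 77.2 TPM in coronatine leaves and 172, 175 and 141 TPM in mock leaves at 3 h. It was below mock at both times and nearly absent from coronatine leaves at 12 h, a change of -5.16 ± 0.16 (SE, limma adjusted p = 4.1e-18). THI1, which makes the thiazole ring of thiamine, stood at 90.6, 60.9 and 73.5 TPM in coronatine leaves and 3787, 3793 and 3778 TPM in mock leaves at 12 h, and at 747, 785 and 681 TPM in coronatine leaves and 1849, 1988 and 2021 TPM in mock leaves at 3 h. Mock leaves were higher at 12 h than at 3 h while coronatine leaves were lower, and its effect changed by -4.25 ± 0.12 (SE, limma adjusted p = 1.7e-18). CA2, a β-carbonic anhydrase, changed by -4.62 ± 0.14 (SE, limma adjusted p = 3.1e-18). The plastid aldolase FBA1 changed by -4.04 ± 0.26 (SE, limma adjusted p = 7.9e-13). AACT1, an acyltransferase of coumaroylagmatine synthesis, changed by -4.77 ± 0.53 (SE, limma adjusted p = 2.2e-08), with 10.5, 2.13 and 0.53 TPM in coronatine leaves at 12 h, where the first library was the highest.

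The first coronatine library at 12 h had the highest level of its group for IPMI1, CYP79F1, MAM1, ORA59 and PAP1 as well, so that these effects were smaller in it than in the other two. BAM5, a β-amylase, and UGT71C3, a glucosyltransferase, were below mock at 12 h and above it at 3 h, with changes of -4.10 and -4.26. For UGT71C3 the effect at 3 h was only 0.34.

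The 250 bases upstream of the RefSeq gene starts are shown for the leading ranked genes, the 2 largest gains and the 2 largest losses. They are from the RefSeq annotation of TAIR10.1, in lower case, 5′ to 3′ on the gene's strand, and capitals would mark the G-box CACGTG, the core element bound by MYC factors. The windows are chr2:17464243-17464492 for PGAZAT, chr4:12295860-12296109 for GH9B15, chr3:21798304-21798553 for IPMI1 and chr3:1136398-1136647 for LTL1, all on the minus strand.
PGAZAT: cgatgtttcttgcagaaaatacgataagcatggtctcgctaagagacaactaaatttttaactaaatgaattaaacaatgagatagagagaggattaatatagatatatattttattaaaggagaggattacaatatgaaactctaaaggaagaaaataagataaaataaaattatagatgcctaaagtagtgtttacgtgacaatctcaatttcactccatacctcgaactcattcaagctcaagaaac
GH9B15: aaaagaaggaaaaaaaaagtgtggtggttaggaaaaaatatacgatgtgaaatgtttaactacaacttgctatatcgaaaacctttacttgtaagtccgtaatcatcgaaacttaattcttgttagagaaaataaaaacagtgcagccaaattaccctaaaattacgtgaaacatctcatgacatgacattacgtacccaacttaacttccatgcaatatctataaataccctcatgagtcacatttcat
IPMI1: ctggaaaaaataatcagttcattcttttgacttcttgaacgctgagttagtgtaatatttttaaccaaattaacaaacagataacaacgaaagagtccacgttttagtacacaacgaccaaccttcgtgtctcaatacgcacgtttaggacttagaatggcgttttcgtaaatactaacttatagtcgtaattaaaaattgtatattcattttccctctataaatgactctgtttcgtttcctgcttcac
LTL1: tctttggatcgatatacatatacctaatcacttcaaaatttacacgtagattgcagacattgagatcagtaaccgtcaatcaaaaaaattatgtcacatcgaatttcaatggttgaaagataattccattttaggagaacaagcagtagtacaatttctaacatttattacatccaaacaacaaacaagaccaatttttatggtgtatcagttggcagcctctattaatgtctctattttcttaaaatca
None of these 4 windows holds CACGTG, AAAATATCT (the evening element of clock-controlled genes) or GCCGCC (the GCC-box of ethylene response genes) on either strand. Over 27437 protein-coding genes, 6.49% of windows hold CACGTG, 2.36% AAAATATCT and 1.87% GCCGCC. The G-box was in 7.9% of windows of genes with a higher effect at 12 h and in 7.17% of those with a lower effect, close to the 7.53% of all tested genes. A match is a description of letters and not a binding site.

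Gene lists differed in their counts and medians, as the plot of list medians shows. Each count of changed effects is to be read against the 30.0% of all tested genes called higher and the 30.8% called lower. Counts against mock are to be read against 24.3% above and 41.7% below at 12 h, and 14.2% above and 36.1% below at 3 h. No test was made on a list. Of 38 lists with 535 genes, 519 genes passed the filter. Every gene of the jasmonate turnover and volatile terpene lists was above mock at both times. Aliphatic glucosinolate synthesis was mostly below mock at 12 h and above it at 3 h, chloroplast lists dropped further below mock, and senescence, autophagy, protease and abscisic acid lists gained.

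**Figure D2:**
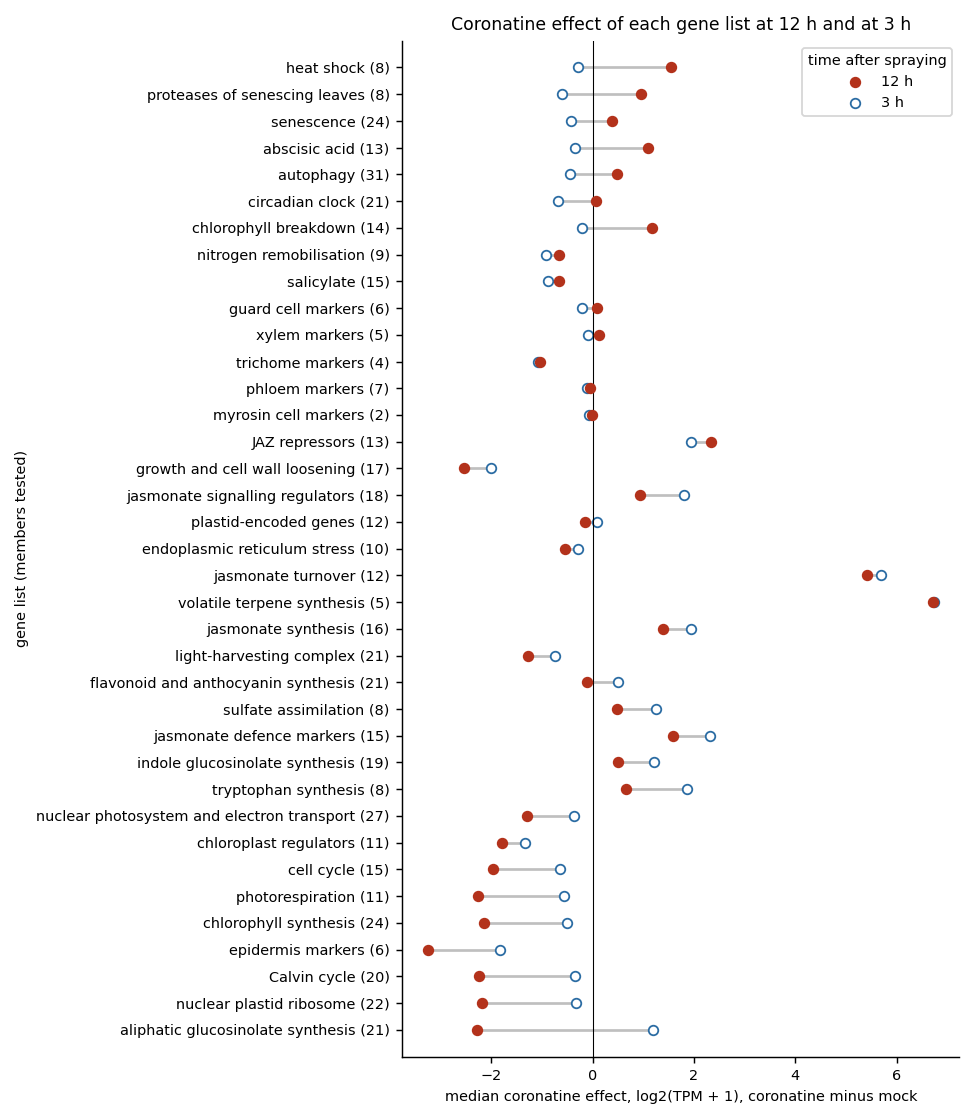
Each row is a gene list with its number of tested members, filled points are the median coronatine effect at 12 h and open points that at 3 h, in log2(TPM + 1) units. Lists are ordered by the median change of effect, which was -3.03 for aliphatic glucosinolate synthesis at the bottom and 1.84 for heat shock at the top.

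Jasmonate turnover genes were above mock at both times. All 12 genes of jasmonate turnover were above mock at 12 h and all 12 at 3 h, with a median effect of 5.42 at 12 h and 5.70 at 3 h. JOX4, an oxidase that hydroxylates jasmonate, stood at 3671, 3701 and 3879 TPM in coronatine leaves and 15.9, 32.8 and 34.6 TPM in mock leaves at 12 h, and at 2256, 2132 and 1975 TPM in coronatine leaves and 14.8, 7.68 and 13.4 TPM in mock leaves at 3 h. Coronatine leaves were far above mock at both times, and the change of effect was -0.30 ± 0.54 (SE, limma adjusted p = 0.651), which did not pass the test. The 3 members whose effect fell were CYP94B1, a jasmonoyl-isoleucine hydroxylase, by 1.69, and the amidohydrolases ILL6 and IAR3. These too stayed well above mock. The level of IAR3 was higher at 12 h than at 3 h in both treatments. Its means at 12 h and 3 h were 963 and 685 TPM in coronatine leaves and 177 and 68.6 TPM in mock leaves. None of the 12 had a higher effect at 12 h, and the 3 lower ones are a share near that of all tested genes.

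Of the JAZ repressors 5 of 13 were higher, 4 lower and 4 not called, shares near the 30.0% and 30.8% of all tested genes. Of the 3 genes intact in jazD, JAZ11 gained an effect. It stood at 66.7, 72.8 and 66.2 TPM in coronatine leaves and 15.7, 14.3 and 13.2 TPM in mock leaves at 12 h, and at 12.9, 11.3 and 15.3 TPM in coronatine leaves and 13.6, 12.4 and 14.2 TPM in mock leaves at 3 h. Coronatine leaves separated from mock only at 12 h, with a change of 2.21 ± 0.12 (SE, limma adjusted p = 3.1e-14). JAZ12 went the other way. It stood at 148, 141 and 134 TPM in coronatine leaves and 112, 115 and 110.1 TPM in mock leaves at 12 h, and at 205, 207 and 232 TPM in coronatine leaves and 91.3, 82.6 and 86.5 TPM in mock leaves at 3 h, and its effect changed by -0.97 ± 0.08 (SE, limma adjusted p = 1.3e-10). JAZ8 was above mock by 4.80 at 12 h and 5.46 at 3 h, a change of -0.66 ± 0.22 (SE, limma adjusted p = 0.0112). With quantile normalization that change was -0.40 with a limma adjusted p of 0.13. Among disrupted loci, JAZ3, JAZ4, JAZ6 and JAZ10 had a higher effect at 12 h and JAZ5 and JAZ9 a lower one. Reads from part of a disrupted gene still give a level, so these values do not check the mutations.

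Of 18 regulators of the pathway 8 were higher and 7 lower, beside 30.0% and 30.8% of all tested genes. MYC2, the master activator, stood at 256, 269 and 256 TPM in coronatine leaves and 107, 109 and 110.1 TPM in mock leaves at 12 h, and at 282, 289 and 289.6 TPM in coronatine leaves and 55.8, 47.8 and 51.5 TPM in mock leaves at 3 h. Its coronatine leaves were not called between the times while mock leaves were higher at 12 h, and the effect changed by -1.2 ± 0.11 (SE, limma adjusted p = 4.2e-10). ORA59, which joins jasmonate to ethylene signals, fell most. It stood at 2.62, 0.79 and 0.59 TPM in coronatine leaves and 79.3, 72.5 and 93.3 TPM in mock leaves at 12 h, and at 52.6, 49.9 and 54.1 TPM in coronatine leaves and 143, 129.5 and 138 TPM in mock leaves at 3 h, below mock at both times, with a change of -3.87 ± 0.24 (SE, limma adjusted p = 6.3e-13). The NAC factors NAC019 and NAC055, which act downstream of MYC2, had higher effects at 12 h, by 1.25 and 1.27, and the corepressor TPL gained as well. In jasmonate synthesis 4 of 16 were higher and 7 lower, and 13 were above mock at 12 h and 12 at 3 h. AOS, allene oxide synthase, stood at 3664, 3638 and 3582 TPM in coronatine leaves and 925, 1211 and 1131 TPM in mock leaves at 12 h, and at 4312, 4779 and 4066 TPM in coronatine leaves and 496, 472 and 520.0 TPM in mock leaves at 3 h. Coronatine leaves were lower and mock leaves higher at 12 h than at 3 h, and the effect changed by -1.40 ± 0.15 (SE, limma adjusted p = 9e-09). OPCL1 and OPR3, which act in the peroxisomal steps, fell by 1.74 and 1.56, while the β-oxidation thiolase gene KAT2 rose by 1.57.

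All 5 volatile terpene genes were above mock at both times. TPS04, geranyllinalool synthase, stood at 3377, 3575 and 3313 TPM in coronatine leaves and 65.02, 105 and 78.3 TPM in mock leaves at 12 h, and at 1519, 1315 and 1460.5 TPM in coronatine leaves and 17.9, 9.02 and 11.7 TPM in mock leaves at 3 h. The level in coronatine leaves was higher at 12 h, but mock leaves rose further in proportion, so that the effect changed by -1.36 ± 0.34 (SE, limma adjusted p = 0.00119). TPS10, a linalool synthase, reached 4001 to 4303 TPM in coronatine leaves at 12 h, against 590.0 to 653 TPM at 3 h, with a change of 1.54 ± 0.60 (SE, limma adjusted p = 0.0268) that was lost in 6 of the alternative settings. Of 15 defence markers, 2 were higher, 7 lower and 6 not called, beside 30.0% and 30.8% of all tested genes. The 2 higher ones were VSP1 and VSP2, and the change of 0.71 ± 0.31 (SE, limma adjusted p = 0.0471) for VSP2 lost its call in 13 alternative settings. VSP1, a storage protein, stood at 17139.6, 17182 and 18332 TPM in coronatine leaves and 785, 1453 and 1369 TPM in mock leaves at 12 h, and at 5374, 5260.5 and 5912 TPM in coronatine leaves and 823, 732 and 598 TPM in mock leaves at 3 h. Both treatments were separated at both times, and the change was 0.97 ± 0.34 (SE, limma adjusted p = 0.0167). The first mock library at 12 h was lowest of its group for VSP1, VSP2, JOX4, BSMT1, TPS03 and TPS10. Without it the VSP1 change was 0.69 with a limma adjusted p of 0.074, the TPS10 change was 0.82 with an adjusted p of 0.13, and the VSP2 change was 0.47 with an adjusted p of 0.17. BSMT1, which methylates salicylate and benzoate, had 8631, 9180.0 and 8612 TPM in coronatine leaves and 22.97, 69.6 and 46.5 TPM in mock leaves at 12 h, and its change of -0.86 did not pass the test. TAT3, a tyrosine aminotransferase, changed by -0.48 and was not called. Markers of the ethylene branch were among the lower ones: HEL, a chitin-binding protein, changed by -1.69 ± 0.24 (SE, limma adjusted p = 1.2e-06), and the defensin PDF1.2 and 3 near-identical relatives by -0.78 to -1.24.

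Aliphatic glucosinolate synthesis, which makes the methionine-derived mustard oil precursors, was lower at 12 h in 21 of 21 genes, beside 30.8% of all tested genes. At 12 h, 16 of the 21 were below mock and 3 above, and at 3 h 1 was below and 17 were above. The median effect was -2.28 at 12 h and 1.2 at 3 h. CYP79F1, which starts the core pathway, stood at 19.96, 10.01 and 11.2 TPM in coronatine leaves and 124, 118 and 103 TPM in mock leaves at 12 h, and at 114, 124 and 127 TPM in coronatine leaves and 35.7, 54.01 and 40.2 TPM in mock leaves at 3 h. Coronatine leaves at 12 h had less than each of the other 9 libraries, and the change was -4.52 ± 0.45 (SE, limma adjusted p = 3.1e-09). MAM1, which condenses the lengthening chain, stood at 46.7, 25.6 and 28.7 TPM in coronatine leaves and 244, 231 and 219 TPM in mock leaves at 12 h, and at 356, 388 and 398 TPM in coronatine leaves and 147, 200.2 and 154 TPM in mock leaves at 3 h, a change of -3.99 ± 0.48 (SE, limma adjusted p = 7.8e-08). CYP79F2 and GSTF11 changed by -4.12 and -4.30. CYP79F1 and CYP79F2 are close copies in tandem, so their division of reads is uncertain. Mock leaves contributed: 18 of the 21 genes were higher in mock leaves at 12 h than at 3 h and none lower, beside 24.0% and 13.9% of all tested genes. In coronatine leaves 18 were lower, beside 30.7%.

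The regulators and the last steps of the aliphatic pathway were named after their values were seen. MYB28, the main activator, was below mock at both times, by -3.34 at 12 h and -1.65 at 3 h. It stood at 7.25, 4.44 and 6.07 TPM in coronatine leaves and 70.5, 69.3 and 63.9 TPM in mock leaves at 12 h, and at 11.4, 10.7 and 13.3 TPM in coronatine leaves and 32.6, 46.3 and 39.4 TPM in mock leaves at 3 h. MYB29 was below mock at 12 h only, at -2.95 against -0.06, and MYB76 was below at 12 h and above at 3 h. The 3 genes still above mock at 12 h were the sulfotransferase genes SOT17 and SOT18 and the S-oxygenase gene FMO_GS-OX1, with effects of 1.38, 1.2 and 1.41. SOT17 and SOT18 make the last step of the core structure.

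Indole glucosinolate synthesis, fed by tryptophan, had 3 of 19 genes higher and 11 lower, and its median effect was 0.50 at 12 h and 1.22 at 3 h. At 12 h 13 of the 19 were above mock, and at 3 h 13, though not the same genes throughout: CYP81F3 was above mock at 12 h and below it at 3 h. MYB34, an activator, stood at 216, 229.7 and 233 TPM in coronatine leaves and 39.95, 51.9 and 47.1 TPM in mock leaves at 12 h, and at 140.2, 163 and 135 TPM in coronatine leaves and 11.3, 9.79 and 10.9 TPM in mock leaves at 3 h. Coronatine leaves were higher at 12 h than at 3 h, mock leaves rose further, and the effect changed by -1.38 ± 0.23 (SE, limma adjusted p = 7.9e-06). CYP79B2, which turns tryptophan into its aldoxime, stood at 702, 728 and 672 TPM in coronatine leaves and 155, 191 and 169 TPM in mock leaves at 12 h, and at 519, 558 and 532 TPM in coronatine leaves and 59.5, 47.2 and 52.2 TPM in mock leaves at 3 h, a change of -1.3 ± 0.15 (SE, limma adjusted p = 3.1e-08). IGMT5, a methyltransferase acting on the indole ring, fell most, by 3.68, with 1872, 1835 and 1859.8 TPM in coronatine leaves and 317, 542 and 485 TPM in mock leaves at 12 h, and 3567, 3156 and 3496 TPM in coronatine leaves and 69.9, 60.7 and 55.5 TPM in mock leaves at 3 h. The hydroxylase gene CYP81F1 went up by 2.51 and the regulator MYB122 by 1.7.

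In tryptophan synthesis 6 of 8 were lower and none higher, and TSB1, a tryptophan synthase subunit, stood at 515, 490.1 and 468 TPM in coronatine leaves and 474, 554 and 654 TPM in mock leaves at 12 h, and at 2396, 2209 and 2420.4 TPM in coronatine leaves and 643, 605 and 641 TPM in mock leaves at 3 h. It overlapped with mock at 12 h and was far above mock at 3 h, a change of -2.07 ± 0.14 (SE, limma adjusted p = 3.8e-12). In sulfate assimilation 6 of 8 were lower and 1 higher. APS3, an ATP sulfurylase, changed by -2.50, and was below mock at 12 h and above at 3 h. Of 21 flavonoid and anthocyanin genes, 12 were lower and 2 higher. PAP1, the anthocyanin activator, stood at 12.8, 7.38 and 7.96 TPM in coronatine leaves and 41.1, 35.9 and 36.6 TPM in mock leaves at 12 h, and at 20.1, 17.3 and 22.6 TPM in coronatine leaves and 4.74, 3.92 and 4.32 TPM in mock leaves at 3 h. It was below mock at 12 h and above at 3 h, a change of -3.92 ± 0.35 (SE, limma adjusted p = 5.2e-10). The list rose in mock leaves as well: 20 of 21 were higher in mock leaves at 12 h than at 3 h, beside 24.0% of all tested genes.

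**Figure D3:**
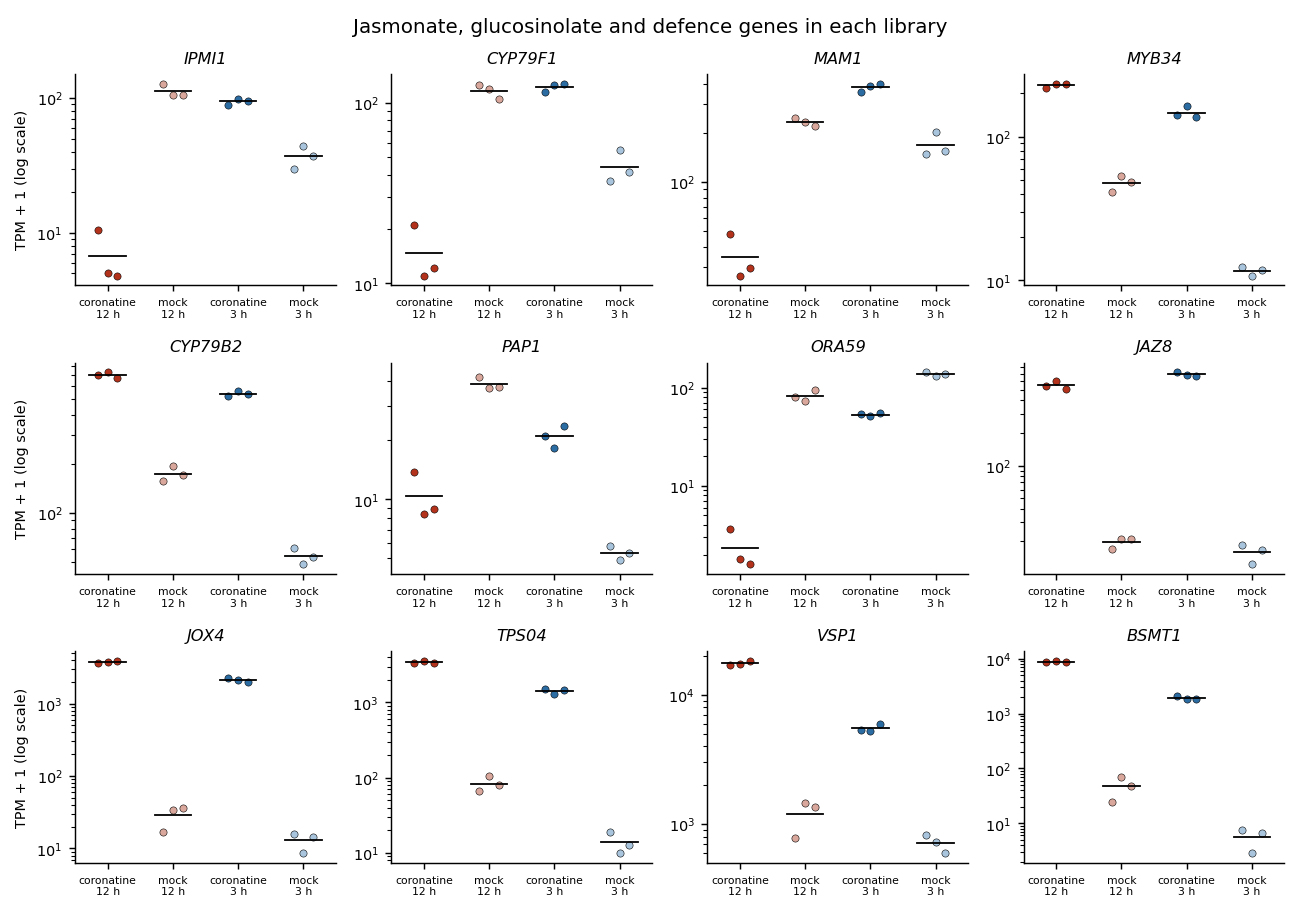
Points are single libraries and lines group means of 12 jasmonate, glucosinolate and defence genes, as TPM + 1 on log axes whose ranges differ between panels, for coronatine and mock leaves at 12 h and at 3 h. IPMI1, CYP79F1, MAM1 and PAP1 lie below mock at 12 h and above it at 3 h, while JAZ8, JOX4, TPS04, VSP1 and BSMT1 stay above mock at both times.

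Chlorophyll breakdown had 8 of 14 genes higher and 4 lower at 12 h, beside 30.0% and 30.8% of all tested genes. CYP89A9, which modifies the breakdown products, gained most, by 3.88 ± 0.19 (SE, limma adjusted p = 6.1e-15). SGR1, the magnesium dechelatase that starts degreening, stood at 166, 200.1 and 166 TPM in coronatine leaves and 17.3, 17.9 and 21.3 TPM in mock leaves at 12 h, and at 15.6, 12.3 and 13.5 TPM in coronatine leaves and 18.8, 15.03 and 14.8 TPM in mock leaves at 3 h. Coronatine and mock leaves overlapped at 3 h and were well separated at 12 h, a change of 3.39 ± 0.15 (SE, limma adjusted p = 1.1e-15). SGR2 changed by 2.39 ± 0.24 (SE, limma adjusted p = 2.7e-09). PAO, which opens the porphyrin ring, stood at 731, 728 and 737 TPM in coronatine leaves and 68.02, 73.03 and 80.6 TPM in mock leaves at 12 h, and at 159.7, 152 and 172 TPM in coronatine leaves and 65.9, 66.7 and 66.1 TPM in mock leaves at 3 h. It was above mock at both times, by more at 12 h, a change of 2.02 ± 0.08 (SE, limma adjusted p = 1.7e-16). PPH, which removes the phytol chain, was already high at 3 h, with effects of 3.37 at 12 h and 2.64 at 3 h. NYC1, a chlorophyll b reductase, stood at 175, 195 and 163 TPM in coronatine leaves and 135, 136 and 142 TPM in mock leaves at 12 h, and at 49.5, 40.6 and 48.9 TPM in coronatine leaves and 73.9, 73.8 and 73.6 TPM in mock leaves at 3 h, a change of 1.02 ± 0.12 (SE, limma adjusted p = 4.8e-08). It was above mock at 12 h by 0.36, and its level below mock at 3 h, at -0.66, was not called. The other two higher genes, named after their values were seen, were MES16, an esterase of the late steps, at 2.21 and TIC55, a hydroxylase of the same steps, at 0.39.

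The 4 lower genes were RCCR, HCAR, CLH1 and SGRL. RCCR reduces the red catabolite that PAO makes, and it stood at 23.7, 20.9 and 24.2 TPM in coronatine leaves and 59.96, 56.5 and 55.2 TPM in mock leaves at 12 h, and at 41.3, 37.6 and 44.8 TPM in coronatine leaves and 48.3, 46.1 and 54.4 TPM in mock leaves at 3 h. It was below mock at 12 h, and the change was -1.02 ± 0.14 (SE, limma adjusted p = 6.2e-07). For HCAR, the next step of chlorophyll b conversion after NYC1, the effect fell by 0.82 although its level was higher at 12 h in both treatments. Its means at 12 h and 3 h were 15.4 and 7.66 TPM in coronatine leaves and 36.5 and 10.2 TPM in mock leaves. CLH1, a chlorophyllase that responds to jasmonate, was above mock by 2.07 at 12 h and 2.59 at 3 h. For SGRL, a relative of SGR1 named after its values were seen, the effect fell by 0.48.

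Senescence genes were higher in 18 of 24 and lower in none, beside 30.0% and 30.8% of all tested genes. At 12 h 13 of the 24 were above mock and 3 below, beside 24.3% and 41.7% of all tested genes. At 3 h 6 were above and 9 below, beside 14.2% and 36.1%. The median effect was 0.39 at 12 h and -0.43 at 3 h. WRKY53, a member of the list, was below mock at both times, with effects of -2.58 at 12 h and -2.65 at 3 h. Its change was not called. SAG113 stood at 58.2, 66.3 and 50.2 TPM in coronatine leaves and 0.63, 0.37 and 0.66 TPM in mock leaves at 12 h, and at 1.12, 1.05 and 0.94 TPM in coronatine leaves and 0.09, 0.15 and 0.18 TPM in mock leaves at 3 h. Among these 12 libraries it was at 1.12 TPM or less outside coronatine leaves at 12 h. NAC092, an activator of senescence, stood at 49.6, 55.3 and 44.1 TPM in coronatine leaves and 1.77, 1.77 and 2.03 TPM in mock leaves at 12 h, and at 12.6, 9.04 and 10.3 TPM in coronatine leaves and 2.61, 1.48 and 1.51 TPM in mock leaves at 3 h. It was above mock at both times, by more at 12 h, a change of 2.11 ± 0.25 (SE, limma adjusted p = 5.7e-08), and NAC046, another activator of degreening, changed by 2.44 ± 0.17 (SE, limma adjusted p = 4.7e-12). NAP, a further senescence NAC factor, differed. It stood at 5.24, 7.86 and 3.13 TPM in coronatine leaves and 6.18, 3.69 and 3.45 TPM in mock leaves at 12 h, and at 1.01, 1.53 and 1.62 TPM in coronatine leaves and 12.6, 9.66 and 11.8 TPM in mock leaves at 3 h. Coronatine leaves overlapped with mock at 12 h and were far below mock at 3 h, and the change was 2.58 ± 0.31 (SE, limma adjusted p = 6.9e-08) with no call against mock at 12 h. SAG12, a protease of late senescence, was at or under 0.37 TPM in all 12 libraries and was not called.

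Autophagy genes, which carry cell contents to the vacuole, were higher in 28 of 31 and lower in none, beside 30.0% and 30.8% of all tested genes, with a median change of 0.95 beside -0.05 for all genes. ATG8H, one of the ATG8 proteins that coat autophagosomes, stood at 109, 132 and 113 TPM in coronatine leaves and 13.2, 13.8 and 9.59 TPM in mock leaves at 12 h, and at 8.53, 10.5 and 10.8 TPM in coronatine leaves and 16.5, 10.3 and 11.2 TPM in mock leaves at 3 h. The groups overlapped at 3 h and were separated at 12 h, a change of 3.48 ± 0.20 (SE, limma adjusted p = 2e-13). ATG8A and ATG8E changed by 2.48 and 2.31. Mock leaves contributed: 15 of the 31 were lower in mock leaves at 12 h than at 3 h and none higher, beside 13.9% and 24.0% of all tested genes. In coronatine leaves 26 were higher, beside 37.9%. For ATG8E the difference between 12 h and 3 h was -1.56 in mock leaves and 0.75 in coronatine leaves. ATG2, ATG13B and ATG8G were the 3 not called. All 8 tested genes of the protease list were higher, beside 30.0% of all tested genes. RD21A, a papain-like protease, stood at 1208, 1307 and 1176 TPM in coronatine leaves and 308, 313 and 322 TPM in mock leaves at 12 h, and at 179, 154 and 176 TPM in coronatine leaves and 270.1, 251 and 266 TPM in mock leaves at 3 h, a change of 2.59 ± 0.08 (SE, limma adjusted p = 1.9e-18). CV, which is no protease itself, stood at 182, 228 and 189 TPM in coronatine leaves and 5.1, 5.7 and 5.57 TPM in mock leaves at 12 h, and at 4.6, 3.83 and 4.28 TPM in coronatine leaves and 2.98, 1.75 and 2.31 TPM in mock leaves at 3 h. Among 9 nitrogen remobilisation genes 5 were higher and 2 lower, led by the cytosolic glutamine synthetase GLN1.2 at 2.48. GDH1 and GLN1.3 were the lower ones.

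**Figure D4:**
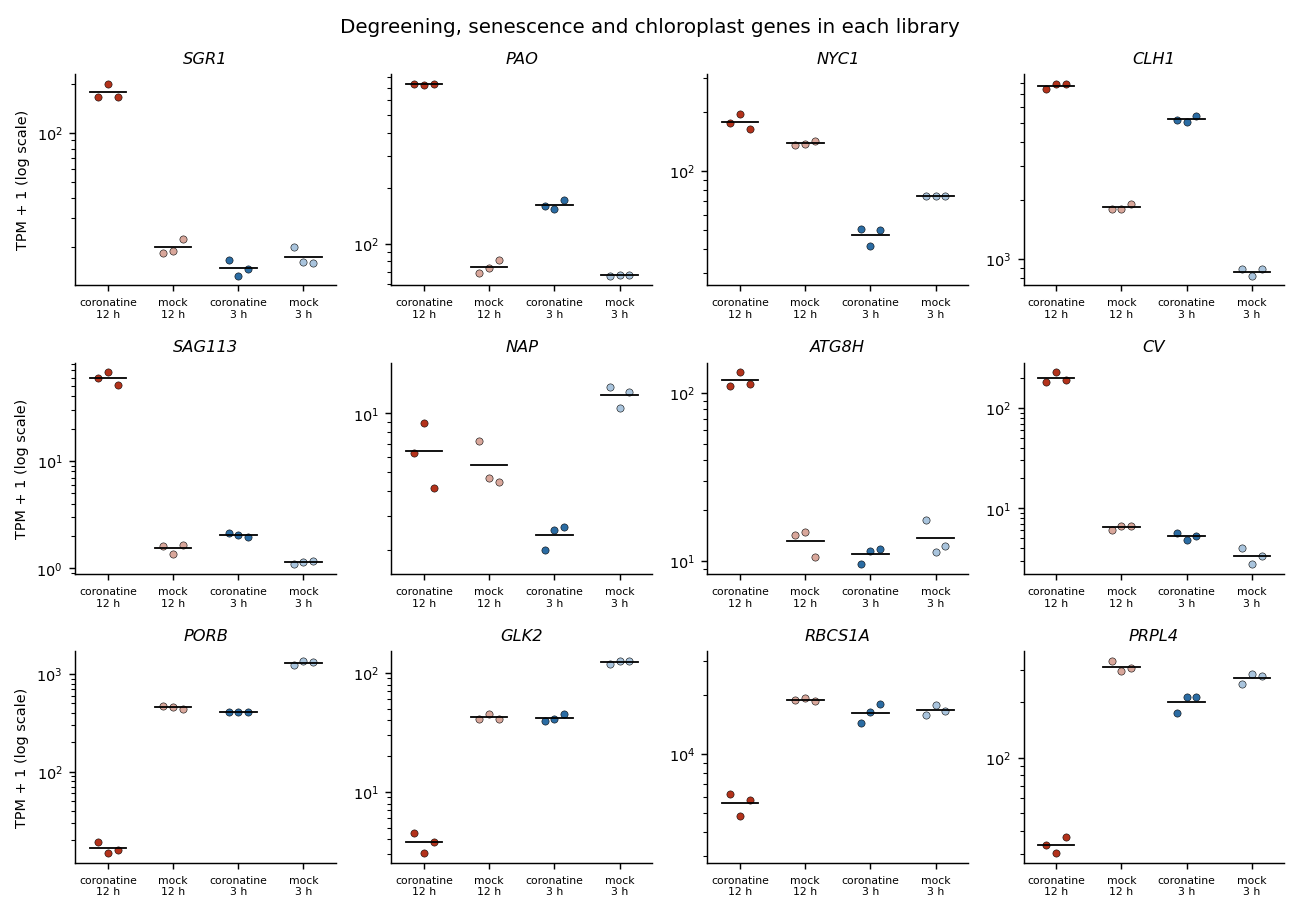
Points are single libraries and lines group means of 12 degreening, senescence and chloroplast genes, as TPM + 1 on log axes whose ranges differ between panels, for coronatine and mock leaves at 12 h and at 3 h. SGR1, SAG113, ATG8H and CV are far above the other groups in coronatine leaves at 12 h, PORB and GLK2 are below mock at both times, and RBCS1A and PRPL4 are clearly below mock at 12 h.

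Transcripts of the nuclear plastid ribosome, Calvin cycle and photorespiration lists had lower coronatine effects at 12 h. All 22 genes for plastid ribosomal proteins encoded in the nucleus were lower, beside 30.8% of tested genes, with none called against mock at 3 h and all 22 below mock at 12 h. PRPL4 stood at 32.5, 29.3 and 35.99 TPM in coronatine leaves and 335, 293 and 307 TPM in mock leaves at 12 h, and at 173, 213 and 213 TPM in coronatine leaves and 249, 283 and 277 TPM in mock leaves at 3 h. Its change was -2.78 ± 0.12 (SE, limma adjusted p = 1.2e-15), and the list ran from -1.02 to -2.78. All 20 Calvin cycle genes were lower, beside the same 30.8%, with a median effect of -2.25 at 12 h and -0.36 at 3 h. RBCS1A stood at 6278, 4816 and 5814 TPM in coronatine leaves and 18892, 19418 and 18569 TPM in mock leaves at 12 h, and at 14333, 16491 and 18067 TPM in coronatine leaves and 15916, 17871 and 16678 TPM in mock leaves at 3 h, so the groups overlapped at 3 h only, and the change was -1.71 ± 0.17 (SE, limma adjusted p = 3.3e-09). RBCS2B changed by -3.96; the RBCS copies share long stretches, so their division of reads is uncertain. In photorespiration 10 of 11 were lower, led by hydroxypyruvate reductase HPR1 at -2.59.

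Chlorophyll synthesis was lower in 20 of 24 genes, beside 30.8% of all tested genes. PORB, the light-driven reductase of protochlorophyllide, stood at 18.1, 13.8 and 14.7 TPM in coronatine leaves and 472, 464 and 441 TPM in mock leaves at 12 h, and at 404, 408 and 413 TPM in coronatine leaves and 1239, 1366 and 1325 TPM in mock leaves at 3 h. It was below mock at both times, by -4.81 at 12 h and -1.68 at 3 h, a change of -3.13 ± 0.11 (SE, limma adjusted p = 4.9e-17). PORC and CHLG, a chlorophyll synthase, changed by -2.98 and -2.77. The 2 genes called higher were HEMA1, by 0.16, and PORA. PORA is listed at 0 in all 3 coronatine libraries at 12 h, against 0.51, 0.32 and 0.6 TPM in mock leaves at 12 h, 0.84, 1.44 and 0.97 TPM in coronatine leaves at 3 h and 4.93, 9.49 and 6.6 TPM in mock leaves at 3 h, so its positive change came with a lower level in coronatine leaves at both times. In the authors' deposited tables its change was -3.14.

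The photosystem and light-harvesting lists were lower in 21 of 27 and 11 of 21 genes, beside 30.8% of all tested genes. LHCB1.1 was low at 12 h in both treatments. It stood at 95.1, 51.5 and 93.7 TPM in coronatine leaves and 120.3, 133 and 104 TPM in mock leaves at 12 h, and at 6609.7, 7847 and 6324 TPM in coronatine leaves and 9086, 10011 and 9731 TPM in mock leaves at 3 h. Mock leaves at 12 h fell by 6.33 on the log2 scale relative to 3 h, and the effect changed by -0.13 ± 0.32 (SE, limma adjusted p = 0.732), which was not called. LHCB2.1 stood at 26.1, 20.5 and 24.3 TPM in coronatine leaves and 120.1, 127 and 99.8 TPM in mock leaves at 12 h, and at 2130.2, 2422 and 2014 TPM in coronatine leaves and 4079, 4329 and 4423 TPM in mock leaves at 3 h, a change of -1.27 ± 0.15 (SE, limma adjusted p = 7.4e-08). Over the light-harvesting list the median difference between 12 h and 3 h was -3.04 in coronatine leaves and -2.48 in mock leaves. LHCB4.3 changed most, by -3.05, and LHCA1 and LHCB1.4 were higher, LHCB1.4 with its call lost in 3 alternative settings. Genes encoded in the plastid itself had smaller measured changes: 2 of 12 were lower, atpB and rpoB, and the median change was -0.21. Group means ran from 2.15 to 2.43 TPM for psaA, from 95.2 to 106 TPM for psbD and from 289 to 558 TPM for atpB. How fully these libraries hold plastid transcripts was not tested.

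The effect on regulators of chloroplast development fell, with 8 of 11 lower. GLK2, a partner of GLK1 in switching on photosynthesis genes, stood at 3.49, 2.08 and 2.8 TPM in coronatine leaves and 40.1, 44.03 and 40.1 TPM in mock leaves at 12 h, and at 38.6, 40.1 and 44.4 TPM in coronatine leaves and 119, 126 and 124 TPM in mock leaves at 3 h, a change of -1.94 ± 0.18 (SE, limma adjusted p = 1.1e-09). GLK1 stood at 167, 135 and 150.1 TPM in coronatine leaves and 342, 357 and 332 TPM in mock leaves at 12 h, and at 302, 292 and 334 TPM in coronatine leaves and 276, 292 and 322 TPM in mock leaves at 3 h. It overlapped with mock at 3 h and was below it at 12 h, a change of -1.25 ± 0.11 (SE, limma adjusted p = 3.4e-10). The 2 higher genes were the light-signal factor HY5 and the sigma factor gene SIG5, at 1.67 and 2.33, and both were above mock at 12 h and below at 3 h.

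Clock genes were called in 17 of 21, with 16 higher and 1 lower, beside 30.0% and 30.8% of all tested genes. At 3 h 11 were below mock and 4 above, beside 36.1% and 14.2% of all tested genes. At 12 h 3 were below and 7 above, beside 41.7% and 24.3%. CCA1, a morning repressor, stood at 1.85, 1.61 and 1.51 TPM in coronatine leaves and 1.19, 1.59 and 1.3 TPM in mock leaves at 12 h, and at 12.3, 10.7 and 10.4 TPM in coronatine leaves and 27.1, 22.8 and 24.3 TPM in mock leaves at 3 h. The groups overlapped at 12 h and coronatine leaves were below mock at 3 h, a change of 1.26 ± 0.12 (SE, limma adjusted p = 1.3e-09). Its level in mock leaves dropped by 3.45 on the log2 scale between the harvests. PRR7 stood at 3.12, 3.44 and 3.44 TPM in coronatine leaves and 1.62, 1.57 and 1.32 TPM in mock leaves at 12 h, and at 56.2, 56.6 and 58.9 TPM in coronatine leaves and 95.2, 92.2 and 89.05 TPM in mock leaves at 3 h, a change of 1.47 ± 0.07 (SE, limma adjusted p = 3.3e-15). TOC1, an evening gene, was below mock by -1.01 at 12 h and -1.17 at 3 h and its change was not called. CDF1 gained 1.94, and PRR3 was the single lower gene. The G-box stood in 8 of 21 promoter windows of this list (38.1%) and the evening element in 5 (23.8%), beside 7.53% and 2.56% of all tested genes. These were the highest shares among the lists searched. In the other lists searched the G-box share ran from 4.55% (nuclear plastid ribosome) to 14.3% (chlorophyll breakdown). Their evening element share was at most 7.14%. No test was made on these shares.

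In the abscisic acid list 10 of 13 were higher and none lower, beside 30.0% and 30.8% of all tested genes. NCED3, which makes the precursor of abscisic acid, stood at 28.9, 33.6 and 33.2 TPM in coronatine leaves and 1.38, 0.95 and 1.11 TPM in mock leaves at 12 h, and at 3.18, 3.25 and 2.65 TPM in coronatine leaves and 2.13, 2.37 and 2.52 TPM in mock leaves at 3 h. Coronatine leaves stood apart from all other groups at 12 h, a change of 3.67 ± 0.16 (SE, limma adjusted p = 1.1e-15). PP2CA, a phosphatase of the same pathway, changed by 3.18 ± 0.12 (SE, limma adjusted p = 1.4e-16). Of 15 salicylate genes 7 were higher and none lower, led by PBS3, an enzyme of salicylate synthesis, at 3.41 ± 0.50 (SE, limma adjusted p = 1.7e-06). Heat shock genes were higher in 6 of 8, with HSP17.6II at 4.24, and HSFA7A was the 1 lower gene. Of 10 genes of endoplasmic reticulum stress, 1 was higher and 2 lower.

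Of 17 growth genes 7 were higher and 4 lower, near the 30.0% and 30.8% of all tested genes. PIF4, a growth-promoting factor, stood at 61.4, 66.8 and 66.6 TPM in coronatine leaves and 4.64, 4.51 and 4.33 TPM in mock leaves at 12 h, and at 188, 202 and 210.1 TPM in coronatine leaves and 129, 117 and 122 TPM in mock leaves at 3 h. It was lower at 12 h than at 3 h in both treatments, but less so in coronatine leaves, and the effect changed by 2.89 ± 0.08 (SE, limma adjusted p = 8.5e-19). PIN3, an auxin carrier, was below mock at 3 h by -2.82 and not called at 12 h. For EXPA6, an expansin, the effect fell by 2.73. All 15 cell cycle genes were lower at 12 h, beside 30.8% of all tested genes, with a median effect of -1.98 at 12 h and -0.65 at 3 h. TSO2, a ribonucleotide reductase subunit, stood at 8.08, 6.14 and 6.91 TPM in coronatine leaves and 83.9, 81.6 and 83.8 TPM in mock leaves at 12 h, and at 11.6, 11 and 9.95 TPM in coronatine leaves and 34.4, 39.8 and 30.8 TPM in mock leaves at 3 h, a change of -1.80 ± 0.20 (SE, limma adjusted p = 2.1e-08).

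Among cell type markers, all 6 of the epidermis were lower, beside 30.8% of all tested genes, with a median change of -1.44. At 12 h all 6 were below mock, beside 41.7% of all tested genes, with a median effect of -3.26. At 3 h 5 were already below mock, beside 36.1%, and 1, CER6, was above. The median effect of the markers at 3 h was -1.83. Their summed level was 129.8 to 135.8 TPM in coronatine leaves at 12 h, 750.8 to 779.5 TPM in mock leaves at 12 h, 500.5 to 554.3 TPM in coronatine leaves at 3 h and 658.1 to 825.6 TPM in mock leaves at 3 h, and no marker was at 0. CER6, a wax-synthesis enzyme, stood at 101, 86.8 and 87.01 TPM in coronatine leaves and 354, 361 and 386 TPM in mock leaves at 12 h, and at 416, 432 and 444 TPM in coronatine leaves and 435, 323 and 346 TPM in mock leaves at 3 h, a change of -2.23 ± 0.13 (SE, limma adjusted p = 2.8e-13). In whole leaves, fewer cells of a type and less RNA per cell cannot be told apart. The part of epidermal cells in the other results was not tested. Guard cell markers were higher in 3 and lower in 1 of 6, with the potassium channel gene KAT1 at 2.69. Their sums were 157.8 to 171 TPM in coronatine and 162.2 to 191.5 TPM in mock leaves at 12 h, and 194.8 to 222.8 TPM in coronatine and 237.6 to 269.7 TPM in mock leaves at 3 h. Phloem markers were higher in 3 and lower in 2 of 7, with sums of 602.6 to 745.8 TPM in coronatine and 702.7 to 736.9 TPM in mock leaves at 12 h, and 594 to 633.5 TPM in coronatine and 492.4 to 659.7 TPM in mock leaves at 3 h. None of 5 tested xylem markers was called and neither of 2 myrosin cell markers, and 1 of 4 trichome markers, TRY, was higher. The trichome sums were 17.5 to 19.4 TPM in coronatine and 29.2 to 33.03 TPM in mock leaves at 12 h, and 5.96 to 7.99 TPM in coronatine and 19.3 to 29.1 TPM in mock leaves at 3 h.

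Up to 3 h the plotted chloroplast and degreening lists had median effects between -0.51 and 0.13. At 0, 1, 3, 12 and 24 h the median effect on nuclear plastid ribosome genes was -0.11, -0.14, -0.33, -2.19 and -3.50. For chlorophyll breakdown it was 0.04, -0.06, -0.22, 1.18 and 2.59 at the same times. For aliphatic glucosinolate synthesis it was -0.22, 0.09, 1.2, -2.28 and -3.36, so the median was above 0 at 3 h and below it at 12 h. Jasmonate turnover was at -0.12, 2.41, 5.70, 5.42 and 5.06. Tryptophan synthesis had a lower median at 12 h, 0.65, than at 3 h, 1.87, or at 24 h, 1.48, and indole glucosinolate synthesis had 0.50 at 12 h, 1.22 at 3 h and 1.21 at 24 h. No test was made on these medians.

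**Figure D5:**
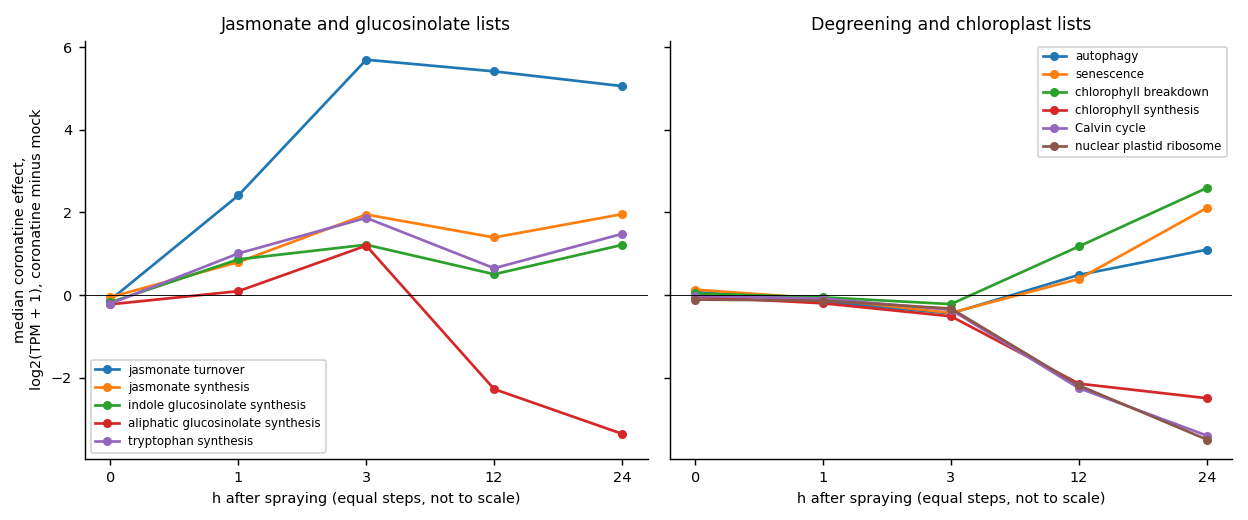
Lines show the median coronatine effect of each list, in log2(TPM + 1) units, at 0, 1, 3, 12 and 24 h, with harvests in equal steps that are not to scale. Jasmonate turnover stays between 5.06 and 5.70 from 3 h on, aliphatic glucosinolate synthesis goes below 0 at 12 h, and the degreening and chloroplast lists part at 12 h.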

How the data were processed

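RNA of whole leaves was sequenced, and the 12 libraries at 12 h and 3 h came from one table of 30. The authors deposited TPM per gene, and their comparison tables hold log2 fold changes, a base mean on a signal scale and p-values, per the file headers. Those tables served only as an alternative. The submitters' processing notes name RSEM 1.3.3, DESeq2 (version given as 3.12) and the build TAIR10, without roles; strand setting and alignment details are not given in the sources used here. Since TPM keeps no depth, the depth of each library is unknown, and no counting interval is given.

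Genes with at least 1 TPM in at least 3 of the 30 libraries were kept, 19005 of 27655 (68.7%). The log2(TPM + 1) values were fitted with limma 3.58.1 (mean-variance trend) in R 4.3.3, with 10 groups sharing 1 estimate of the spread, once for the deposited TPM and once after TMM rescaling, with Benjamini-Hochberg adjustment at 0.05. A fold change on this scale understates the change of low genes. Printed changes, SE and adjusted p are from TPM as deposited. The fit was tested on simulated data. The members and gene lists were chosen with earlier results of these data known. Genes were named by rule. The rule took the 12 largest called changes each way, with a symbol and a mean of at least 10 TPM in the highest group. Coronatine and mock libraries of these genes could not overlap at the time with the larger effect. Named too were up to 3 called members each way and 2 not called from each list, and a fixed set of markers. MYB28, MYB29, MYB76, SOT17, SOT18, FMO_GS-OX1, MES16, TIC55, SGRL, PDF1.2, the abscission and GH3 genes of the closing section, and other members named to complete a count were chosen after their values were seen. Symbols are from the RefSeq gene table. Gene positions are TAIR10 from the authors' tables, and promoter windows were read from the RefSeq TAIR10.1 genome. Genes with near-identical copies, such as the PDF1.2, LHCB1, LHCB2, RBCS and TSB genes, have uncertain values where reads could be divided. Figures were drawn with matplotlib 3.10.9 under Python 3.11.15.

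Alternatives were another scaling, pseudocount, filter, sample set, variance model, replicate block, the authors' tables and each library left out.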

Additional observations from a re-analysis of the deposited data

Results flagged for a closer look

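The coronatine effect itself differed between 12 h and 3 h by the limma test of the difference in 5701 genes with a higher effect and 5851 with a lower one. In 299 of the genes with a higher effect, coronatine leaves were above mock at 12 h and below it at 3 h. In 117 of those with a lower effect, they were below mock at 12 h and above it at 3 h.

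Among the ranked genes with the largest changes, 3 turned upward in this way: UGT73B2 changed by 4.81, UGT73B3 by 4.57 and HAT2 by 4.55 on the log2(TPM + 1) scale. Another 7 turned downward: IPMI1 by -5.53, CYP79F1 by -4.52, GSTF11 by -4.30, UGT71C3 by -4.26, CYP79F2 by -4.12, BAM5 by -4.10 and MAM1 by -3.99. Of these, IPMI1, CYP79F1, GSTF11, CYP79F2 and MAM1 belong to aliphatic glucosinolate synthesis. No cause was tested.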

How the results depend on the processing

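On TPM as deposited, 5706 genes had a higher and 6804 a lower effect at 12 h. Over the other settings the counts ran from 5223 (TPM of at least 5) to 6928 (TMM) higher and from 5711 (TPM of at least 5) to 6997 (no filter) lower. Leaving out each of the 12 libraries in turn gave 5329 to 5717 higher and 6395 to 6810 lower. With the replicate block the counts were 5697 and 6784. Libraries with the same replicate number in their titles had correlations of deviations of -0.131 to 0.122 between groups. The library names number some replicates differently, and those numbers were not compared. With so few libraries per group, such correlations cannot decide whether samples were paired.

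Counts against mock moved more with TMM rescaling: genes higher at 12 h 8238 with TMM, genes higher at 3 h 6679 and lower 6852, and mock leaves at 12 h against 3 h 4553 higher and 4947 lower. On TPM as deposited the same counts were 4609, 2693, 12843, 8730 and 2643. The split of calls against mock thus rests on the scaling, and the calls in the report are those of both.

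Counts of list members, an alternative added after seeing the data, stayed within 1.5 times the reported ones. Without single libraries, senescence ran from 17 to 19, autophagy from 28 to 29, cell cycle from 14 to 15, indole glucosinolate synthesis from 11 to 12 and jasmonate synthesis from 7 to 8. Of 6053 alternative values for 253 named genes, 5943 kept direction and call. Those that reversed were TPS02 (0.72) and HBI1 (0.13) with pseudocount 5, GGP1 (0.55) and PSAE1 (-0.34) with quantile normalization, and PORA (-3.14) and GH3.9 (-0.59) in the authors' deposited tables; the cause was not tested. HEMA1 lost its call without the third mock library at 3 h (adjusted p = 0.051, limma). TPM gives no depth, so low genes cannot be weighed by counting error.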

Other observations

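Counts are given for 10 gene families, some of whose NAC, WRKY and GH3 members also stand in the lists. They were grouped by RefSeq symbol after their values were seen, and no test was made on a family. Each family count is to be read against the 30.0% of all tested genes called higher and the 30.8% called lower. All 8 genes grouped as GH3 had a higher effect at 12 h on TPM. Of these, GH3.9 reversed to -0.59 in the authors' deposited tables and was below mock at both times. The median change of the 8 was 3.30 (3.45 after TMM rescaling), with a median effect of 2.82 at 12 h and -0.58 at 3 h. The grouping left out JAR1, a GH3 enzyme of the jasmonate synthesis list, whose change of -0.20 was not called. Of 15 SAUR genes, which respond to auxin, 12 were higher and 1 lower, and of 18 Aux/IAA repressors 11 were higher and 1 lower. On TPM as deposited their median effects at 12 h were -0.24 and -0.37, beside -0.54 for all tested genes. After TMM rescaling the median of all tested genes at 12 h was 0.025. At 3 h the medians of these families were -1.46 and -1.01 on TPM as deposited, so both were below 0 at both times. Several SAUR genes were low in every group, and some higher calls came with a fall in mock leaves. SAUR15, called higher, was below mock at both times. Its means were 0 TPM in coronatine and 2.017 TPM in mock leaves at 12 h, and 0.72 and 12.58 TPM at 3 h. SAUR36 differed, with 17.81 and 1.683 TPM at 12 h and 0.9467 and 1.743 TPM at 3 h. The CIPK kinases were higher in 15 of 18 and lower in none, and galactinol synthases in 5 of 6. NAC factors were higher in 33 and lower in 4 of 58, and WRKY factors higher in 29 and lower in 3 of 51, beside 30.0% and 30.8% of all tested genes. UMAMIT amino acid transporters were higher in 17 and lower in 2 of 30.

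All 14 PTAC genes, whose proteins sit with the plastid RNA polymerase, had a lower effect at 12 h, beside 30.8% of all tested genes. Their median effect was -2.27 at 12 h and -0.79 at 3 h. Of 11 CRR genes, which serve the plastid NDH complex, 10 were lower and none higher, beside 30.8% and 30.0% of all tested genes.

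Other abscission genes were also chosen after their values were seen. IDA, the peptide signal of organ shedding, stood at 1.22, 2.65 and 1.14 TPM in coronatine leaves and 0.08, 0.08 and 0.08 TPM in mock leaves at 12 h, and at 0, 0 and 0 TPM in coronatine leaves and 0, 0.39 and 0.54 TPM in mock leaves at 3 h, a change of 1.63. It was low in every group and above the others in coronatine leaves at 12 h. HAE, its receptor kinase, stood at 8.54, 6.1 and 6.48 TPM in coronatine leaves and 17.1, 16.02 and 15.9 TPM in mock leaves at 12 h, and at 1.74, 2.04 and 2.34 TPM in coronatine leaves and 10.7, 10.5 and 8.62 TPM in mock leaves at 3 h. It was below mock at both times, by less at 12 h, a change of 0.72. HSL2, the related receptor gene, changed by 0.17, which was not called, and was below mock at both times.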
